A study of Rattus norvegicus with 6 samples.

Results

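The circadian clock of the rat jejunum was followed on the arrays through 10 genes, which were the transcriptional activators Arntl (also called Bmal1), Npas2 and Clock, the repressors Per2, Per3, Cry1 and Cry2, the nuclear receptors Nr1d1 and Nr1d2, and the output factor Dbp. Their probes were found by RefSeq accession, which gave 12 of the 41012 non-control probes. Npas2 and Per3 had 2 probes each and the other 8 genes had 1. Jejunal RNA of male Sprague-Dawley rats, 6 weeks old and weighing 200 ± 20 g, was measured on 6 one-colour Agilent arrays, of which 3 are labelled control and 3 are labelled S3d. Control rats were kept at 25°C without shaking, and S3d rats were exposed to 35°C and a vibration of 0.1 g for 2 h per day on 3 days. Both groups were killed under ether, and by the labels the RNA of 3 rats was pooled into each sample. The labels give 10 rats per group. The study's methods give fewer, so whether pools of a group share animals is not known. The study's methods describe a fixed light and dark cycle and stress sessions in the morning, but the time of day at which the tissue of either group was taken is not given in the sources used here.

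The mammalian clock is a feedback loop of transcription factors that turns over about once a day in nearly every cell. ARNTL pairs with CLOCK or NPAS2 and switches on genes that carry E-box sequences, among them the Per, Cry and Nr1d genes and Dbp, and the PER and CRY proteins then accumulate and shut the activators off. NR1D1 and NR1D2 (REV-ERB alpha and beta) repress Arntl, Clock and Npas2 through ROR response elements. Transcripts of the activators and those of both Nr1d genes, Per3 and Dbp therefore normally peak at opposite times of day. In the gut this clock runs in epithelial and muscle cells, is set strongly by feeding time, and times nutrient transport and cell division.

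Matches to the kinds of DNA elements named in these loops are shown for those of the 10 genes whose start region holds one. RefSeq windows (rat assembly GRCr8) from 250 bases before to 50 bases after the transcription start were at hand for 9 of the 10 genes, 11 windows in all, and each was searched on both strands for the E-box CACGTG, the E′-box CACGTT, the D-box TTATGTAA or TTACGTAA, and the ROR element TAGGTCA or TGGGTCA. A match was found in 4 genes. Only bases upstream of the start are printed, 5′ to 3′ on the gene's strand, with each match in capitals.
Arntl, chr1:176766228-176766327, plus strand, bases -100 to -1, ROR element: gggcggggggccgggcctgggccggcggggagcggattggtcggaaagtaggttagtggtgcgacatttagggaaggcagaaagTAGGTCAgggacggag
Per2, chr9:99497036-99497205, minus strand, bases -212 to -43, D-box and E′-box: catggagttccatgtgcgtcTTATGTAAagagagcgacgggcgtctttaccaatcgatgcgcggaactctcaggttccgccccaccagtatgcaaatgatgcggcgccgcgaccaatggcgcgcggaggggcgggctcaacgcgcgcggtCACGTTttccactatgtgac
Nr1d1, chr10:84231907-84232006, minus strand, bases -194 to -95, E′-box on the other strand: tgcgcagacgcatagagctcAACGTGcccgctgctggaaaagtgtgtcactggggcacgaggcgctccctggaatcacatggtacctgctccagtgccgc
Nr1d1, another start, chr10:84229566-84229665, minus strand, bases -211 to -112, E-box: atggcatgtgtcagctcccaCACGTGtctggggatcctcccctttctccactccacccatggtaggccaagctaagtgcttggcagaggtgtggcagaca
Cry2, chr3:98860570-98860669, minus strand, bases -232 to -133, E′-box on the other strand: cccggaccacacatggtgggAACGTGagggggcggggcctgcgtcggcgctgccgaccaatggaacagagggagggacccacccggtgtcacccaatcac
Over all 33469 rat windows of this length, the E-box was present in 6.42%, the E′-box in 4.83%, the D-box in 1.01% and the ROR element in 6.6%. These matches describe the letters only, and the windows of Npas2, Clock, Per3, Nr1d2 and Dbp held none of them.

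Values below are log2 processed signals from which the array's own 75th percentile was subtracted, so a value of 1 stands for a signal 2 times that percentile. Signals were brighter on the arrays labelled S3d, whose 75th percentile lay between 1456.1 and 1565.7, against 414.4 to 430.1 on the arrays labelled control, and 77.5 to 81.5% of spots against 69.1 to 73.7% were well above background. Each group was hybridised on a slide of its own, so slide and group cannot be told apart. Each column of the deposited normalized table matched a scanner file carrying the other group's label (Spearman's rho of 0.99995 to 1.00000, against 0.94134 to 0.94842 with the file of the same label), so one of these sources has its group labels swapped. Which one was not settled, and samples were left in the groups that GEO's labels give them. The study gives Zbtb16 as higher after stress, from the arrays and from RT-PCR, which runs with the labels of the table. By those labels Zbtb16 was at 2.15, and by the scanner labels at -1.88. Other stress genes of the study are not compared here. Every difference below subtracts the control from the S3d arrays as the scanner files are labelled, so the sign for Zbtb16 is opposite to the study's. By the table's own labels each called clock gene had the opposite direction, and 8 of the 10 were called there, where 69.9% of all probes were. The tissue label was borne out by 7 enterocyte markers, whose mean was high on all arrays. With this scaling the mean lay at 6.60 to 6.88 on the control arrays and 6.25 to 6.33 on the S3d arrays. That shift depended on the scaling. By its own, opposite labels the table gave 0.24 for Fabp1 and 0.02 for Alpi on the brightest probes. It gave -0.24 for Vil1 and Fabp2, -0.77 for Lct, -0.82 for Apob and -0.83 for Anpep. By the scanner labels Vil1, Fabp2, Lct, Apob and Anpep were thus higher on the S3d arrays there. S3d replicate 1 stood apart, because the mean of 5 pancreatic acinar markers was 7.38 there and -5.50 to -4.17 on the other 5 arrays. Results without it are therefore also given for some genes, for the counts of calls and for the arm difference. Other marker means also differed between the groups with this scaling. For 6 leukocyte genes they were -2.19 to -1.95 on the control arrays and -2.60 to -2.44 on the S3d arrays. For 4 neuronal genes they were -1.78 to -1.68 and -1.45 to -1.22, while 5 smooth muscle genes overlapped at 3.74 to 3.98 and 3.58 to 3.84. For 2 goblet and Paneth cell genes they were 7.54 to 7.56 and 6.43 to 6.45. Tff3 carried that last shift, with a difference of -2.13, whereas Lyz2 was at -0.08 and its groups overlapped. The part of these cells in the clock results was not tested. In bulk tissue, fewer cells of a type and less RNA per cell cannot be told apart.

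Of the 10 clock genes, 8 differed between the groups at an adjusted p under 0.05 (limma, Benjamini-Hochberg over all tested probes), 4 of them higher and 4 lower in S3d. This share has to be read against a background of 73.9% of the 31424 tested probes called, 39.5% higher and 34.4% lower, so the number of calls does not set the clock genes apart. The groups did not overlap for 8 of the 10 genes, where they did not overlap for 78.9% of tested probes. The 3 activators were lower, whereas Per2, Per3, Nr1d1 and Dbp were higher, Nr1d2 was lower, and Cry1 and Cry2 were not called. At a fold change of at least 2 besides the adjusted p, 5 genes remained, where the background was 31.5% (18.6% higher and 12.9% lower). These were Per3, Nr1d1 and Dbp, which were higher, and Npas2 and Nr1d2, which were lower. The median change over all tested probes was 0.09, with quartiles of -0.54 and 0.77. All 12 probes passed the filter on dim signals.

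**Figure D1:**
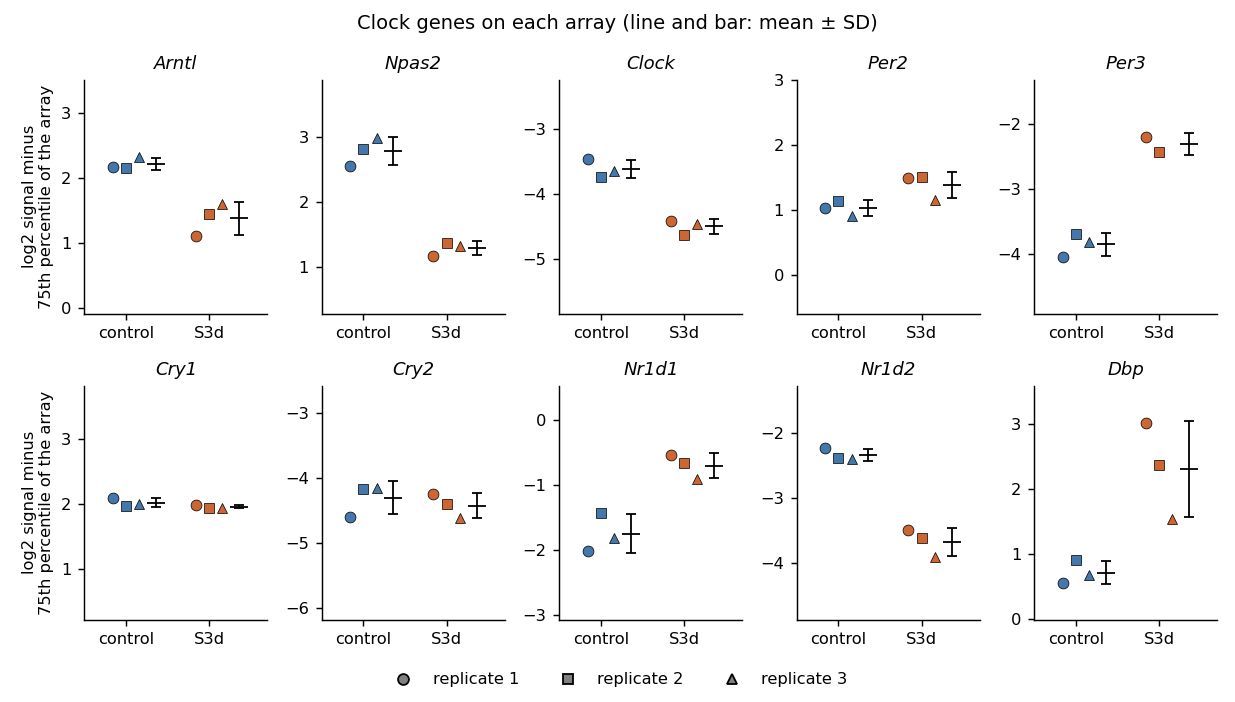
Log2 signal minus the 75th percentile of the array (vertical axis) for the 10 clock genes on the 3 arrays labelled control (blue) and the 3 labelled S3d (orange), with the mean ± SD beside the points; every panel spans the same height. Arntl, Npas2, Clock and Nr1d2 lay lower on all arrays labelled S3d, Per3, Nr1d1 and Dbp lay higher, Cry1 and Cry2 overlapped, and Per3 has 2 points in S3d because 1 spot carried an outlier flag.

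The activator arm fell on every probe that was called. Arntl, the partner that no other protein replaces in most tissues, measured 2.16, 2.15 and 2.32 on the control arrays and 1.10, 1.44 and 1.59 on the S3d arrays. All S3d arrays lay below all control arrays, and replicate 1 was the lowest. The difference was -0.83 (SE 0.14, adjusted p = 0.002, limma), and -0.70 (adjusted p = 0.0018) without S3d replicate 1. Clock, which pairs with ARNTL and carries histone acetyltransferase activity, measured -3.46, -3.74 and -3.65 on the control arrays and -4.42, -4.63 and -4.46 on the S3d arrays. The S3d arrays lay below the control arrays without overlap, with a difference of -0.89 (SE 0.10, adjusted p = 0.00041, limma).

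Npas2, a paralogue of Clock that can take its place, was lower on its brighter probe. That probe measured 2.55, 2.81 and 2.98 on the control arrays and 1.17, 1.37 and 1.32 on the S3d arrays, a difference of -1.49 (SE 0.13, adjusted p = 0.00012, limma), or a 2.81-fold lower signal. The dimmer Npas2 probe measured -2.63, -2.12 and -2.06 on the control arrays and -2.62, -2.69 and -2.80 on the S3d arrays. Here the groups overlapped through control replicate 1, and the difference of -0.43 was not called (SE 0.16, adjusted p = 0.052, limma). The probes of Npas2 thus pointed the same way but differed in size, and their mean gave -0.96 (adjusted p = 0.0011, limma).

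Among the repressors, Per3 was higher and Per2 was slightly higher. Per3, a PER protein that is dispensable for rhythm in many tissues but cycles strongly in them, measured -4.04, -3.69 and -3.81 on the control arrays and -2.19 and -2.43 on S3d replicates 1 and 2. Its spot on S3d replicate 3 carried an outlier flag and was left out, so this value rests on 2 S3d arrays. The difference was 1.53 (SE 0.14, adjusted p = 0.00041, limma), a 2.90-fold higher signal. With that spot kept, the difference was 3.80 and no longer called (adjusted p = 0.11, limma). The other Per3 probe measured -6.62, -5.76 and -6.31 on the control arrays, where 1 of 3 was well above background, and -3.94, -4.09 and -4.60 on the S3d arrays. This probe passed the filter on dim signals through the S3d arrays alone, so its measured difference of 2.02 is a description and adds no support to that of the brighter probe.

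Per2, the PER protein whose loss shortens or abolishes the rhythm, measured 1.04, 1.15 and 0.91 on the control arrays and 1.50, 1.51 and 1.16 on the S3d arrays. The groups nearly touched at control replicate 2 and S3d replicate 3. The difference of 0.36 was just called (SE 0.12, adjusted p = 0.039, limma). The call was lost without control replicate 1 (adjusted p = 0.083), control replicate 3 (adjusted p = 0.11), S3d replicate 1 (0.30, adjusted p = 0.1) or S3d replicate 2 (adjusted p = 0.12), with median centring (0.18, adjusted p = 0.22), without the filter on dim probes (adjusted p = 0.059) and with the methods' one-way analysis of variance (adjusted p = 0.079).

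The cryptochromes, which bind CLOCK and ARNTL and are the strongest repressors of the loop, were not called. Cry1 measured 2.09, 1.97 and 2.00 on the control arrays and 1.98, 1.94 and 1.94 on the S3d arrays. Its groups overlapped, and the difference was -0.07 with a 95% interval of -0.22 to 0.08 (adjusted p = 0.34, limma), although median centring gave a called -0.25 (adjusted p = 0.017) and quantile normalization 0.05. Cry2 measured -4.59, -4.16 and -4.14 on the control arrays and -4.24, -4.40 and -4.61 on the S3d arrays. Its values also overlapped, and the difference was -0.12 with a wider 95% interval of -0.50 to 0.27 (adjusted p = 0.52, limma). Quantile normalization gave -0.55 and a call (adjusted p = 0.015), so the result for Cry2 depended on the scaling.

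The nuclear receptors of the second loop moved apart. Nr1d1, the heme-binding repressor of Arntl, measured -2.01, -1.42 and -1.81 on the control arrays and -0.53, -0.65 and -0.91 on the S3d arrays. All S3d arrays lay above all control arrays, with a difference of 1.05 (SE 0.18, adjusted p = 0.0023, limma), a 2.07-fold higher signal. Nr1d2, its close relative, measured -2.24, -2.39 and -2.41 on the control arrays and -3.50, -3.62 and -3.92 on the S3d arrays. It lay lower on all S3d arrays, with a difference of -1.33 (SE 0.12, adjusted p = 0.00017, limma), a 2.52-fold lower signal. Without S3d replicate 1 the differences were 0.96 for Nr1d1 and -1.42 for Nr1d2, both called. Within each array, the signal of Nr1d1 minus that of Nr1d2 was 0.23, 0.97 and 0.60 on the control arrays and 2.98, 2.97 and 3.00 on the S3d arrays. Probes differ in brightness, so only the change of this quantity between arrays has a meaning, and it rose by 2.38 with almost no spread among the S3d arrays (SD 0.02, n = 3).

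Dbp, a PAR bZIP factor that binds D-boxes and is driven directly by CLOCK and ARNTL, was higher and had the largest spread of the 10 genes over the S3d arrays, as read on the brightest probes. It measured 0.56, 0.91 and 0.68 on the control arrays and 3.02, 2.38 and 1.54 on the S3d arrays. All S3d arrays lay above all control arrays, but replicate 1 was 2.8 times as bright as replicate 3. The difference was 1.60 (SE 0.37, adjusted p = 0.0083, limma), a 3.03-fold higher signal, and 1.24 (adjusted p = 0.01) without S3d replicate 1. The range of Dbp over the S3d arrays was 1.49, against a median range of 0.21 over all tested probes, and 98.1% of tested probes had a smaller one. Its upper end was S3d replicate 1, the array with the acinar markers, and the rank of the range without that array was not computed. The range of Dbp over the control arrays was 0.36.

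**Figure D2:**
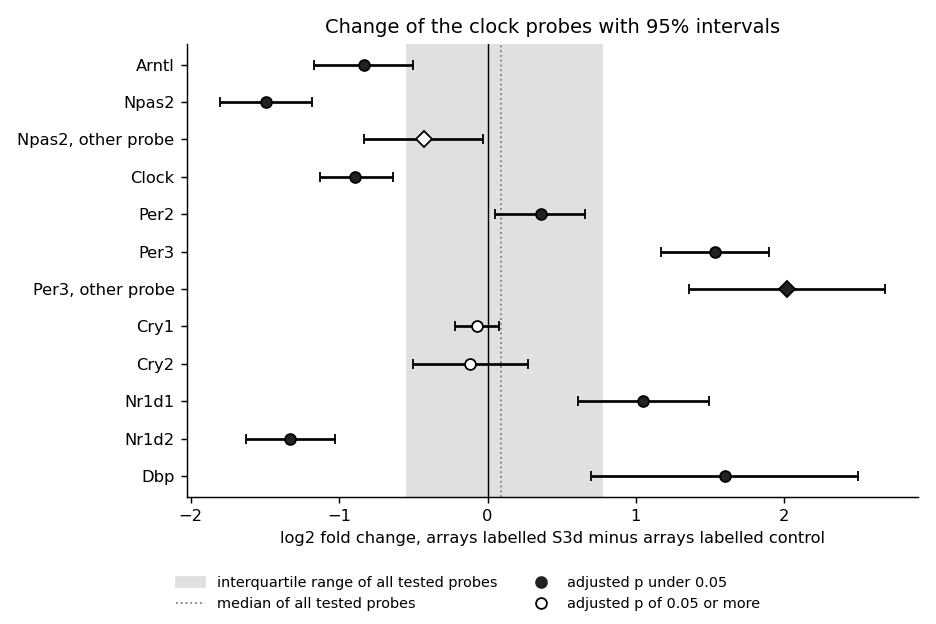
Log2 fold change (horizontal axis, S3d minus control by the scanner labels) of the 12 clock probes with 95% intervals from limma; circles are the brightest probe of each gene, diamonds the other probe, filled symbols an adjusted p under 0.05. Arntl, Npas2, Clock, Nr1d2, Per3, Nr1d1 and Dbp lay outside the interquartile range of all tested probes (grey, -0.54 to 0.77), whereas Per2, Cry1, Cry2 and the other Npas2 probe lay inside it.

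The S3d arrays also ordered several clock genes alike. S3d replicate 1 was the highest of the S3d arrays for Dbp, Nr1d1, Nr1d2 and Cry2 and the lowest for Arntl. S3d replicate 3 was the lowest for Dbp, Per2, Nr1d1, Nr1d2 and Cry2 and the highest for Arntl. Cry1 ranged over only 0.04 on these arrays, against a median of 0.21 over all tested probes, so its order was not read. Npas2 and Clock did not follow the order of Arntl. Npas2 was lowest on S3d replicate 1 and highest on replicate 2, and Clock was highest on replicate 1 and lowest on replicate 2. How many of all tested probes share such an order was not counted. The signal of Dbp minus that of Arntl was -1.61, -1.24 and -1.64 on the control arrays and 1.92, 0.94 and -0.05 on the S3d arrays. The control arrays kept close together (SD 0.22), while the S3d arrays were spread more widely (SD 0.98, n = 3) and all lay above the controls. S3d replicate 1 is also the array with the acinar markers, and their part in this order was not tested. S3d replicates 2 and 3 differed by 0.99 in this quantity, at acinar marker means of -4.33 and -4.17 and with the acinar gene Prss1 at -1.30 and 0.88.

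Set against each other as arms, the activators fell and the repressors and outputs hardly moved as a group. The mean of Arntl, Npas2 and Clock was 0.42, 0.41 and 0.55 on the control arrays and -0.72, -0.60 and -0.52 on the S3d arrays. The mean of Per2, Cry1, Cry2, Nr1d1, Nr1d2 and Dbp, the 6 genes of the other arm with a value on every array, was -0.86, -0.66 and -0.80 on the control arrays and -0.30, -0.47 and -0.80 on the S3d arrays, where the groups overlapped. The falls of Nr1d2 and the rises of Nr1d1 and Dbp partly cancelled in that mean. The activator arm minus the other arm was 1.23 ± 0.15 (SD, n = 3) on the control arrays and -0.09 ± 0.35 (SD, n = 3) on the S3d arrays, a change of -1.32. The values did not overlap, lying between 1.06 and 1.34 on the control arrays and between -0.42 and 0.28 on the S3d arrays. No p is given for this quantity, since the genes were chosen with results of these data known. It changed by -1.15 without S3d replicate 1. With Per3 added on its other probe the change was -1.57. That probe was dim on the control arrays and passed the filter through the S3d arrays alone, so this value is a description and adds no support.

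**Figure D3:**
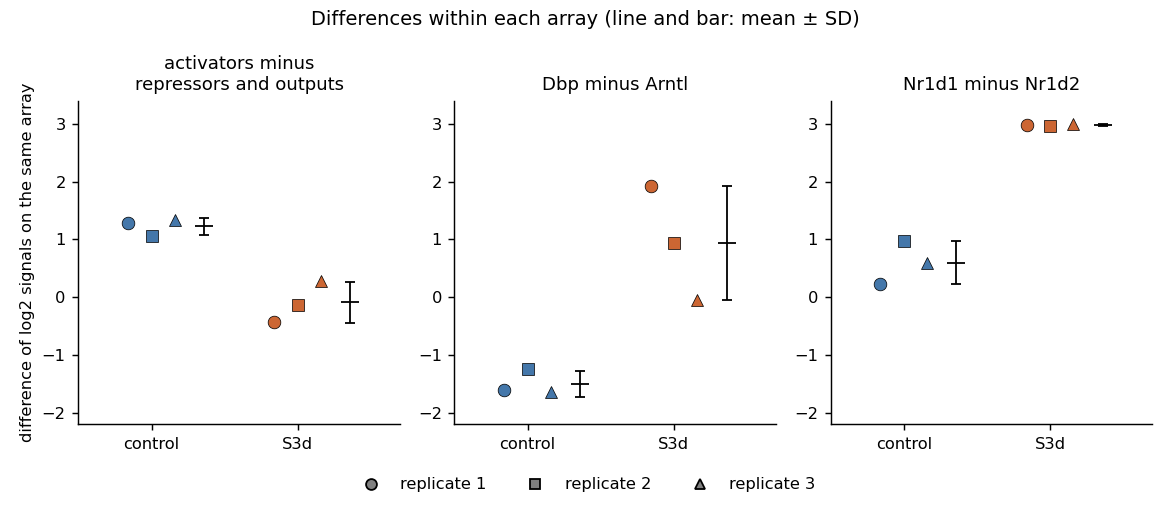
Differences of log2 signals within each array (vertical axis) for the activator arm minus the repressor and output arm, Dbp minus Arntl, and Nr1d1 minus Nr1d2, with the mean ± SD beside the 3 arrays of each group. A division of an array by a constant leaves these values as they are; only their change between arrays can be read, and it was -1.32, 2.43 and 2.38.

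Further genes of the clock machinery, listed by function, had probes in 13 of 20 cases, and 10 of these were called, 3 higher and 7 lower, with a median change of -0.49. The background was the same 73.9% of tested probes called (39.5% higher and 34.4% lower), and each count that follows is to be read against it. Among the loop factors, Per1, the PER gene that answers fastest to hormones and light, measured -0.99, -1.02 and -0.88 on the control arrays and -2.01, -1.71 and -1.58 on the S3d arrays. It was lower without overlap, by a difference of -0.80 (SE 0.12, adjusted p = 0.0015, limma), and so ran opposite to Per2 and Per3. Bhlhe40 (DEC1), which competes for E-boxes, had a difference of -1.05 and Nfil3 (E4BP4), which competes with DBP for D-boxes, one of -1.04, while Arntl2, a paralogue of Arntl, was 0.32 higher. All 3 were called (adjusted p = 0.00018, 0.0012 and 0.011, limma), though the other Arntl2 probe was at 0.06 with overlap. The call of Arntl2 was lost with median centring (0.14, adjusted p = 0.17) and with the mean over its probes (0.19, adjusted p = 0.3). Tef, a relative of Dbp, had values of -2.77, -2.22 and -2.47 on the control arrays and -1.77, -2.31 and -2.69 on the S3d arrays. The groups overlapped and the difference of 0.23 was not called (adjusted p = 0.45, limma), with S3d replicate 1 again the highest and replicate 3 the lowest of the S3d arrays.

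Of 4 kinase and ubiquitin ligase genes that set the stability of PER and CRY proteins, 2 were called. Gsk3b, a kinase with several clock substrates, was lower by a difference of -1.27 (SE 0.06, adjusted p = 1.9e-05, limma). Btrc, the F-box protein that marks PER for degradation, was not well above background on any control array. With the scaling used here it was at least 2.11-fold higher on the S3d arrays (adjusted p = 0.00034, limma). Btrc entered the test through the S3d arrays alone, where it was high, so its call, also in the counts above, is a description and adds no support. This bound sets the mean of its S3d arrays against the lowest signal well above background on each control array, or the probe's own signal where higher. It is 1.08 as a log2 value and does not hold under every processing. The difference of Btrc was 1.41 with median centring, but 0.92 with quantile normalization and -1.63 with the normexp correction. Csnk1d, a kinase of PER, was at 0.00 with a 95% interval of -0.14 to 0.15, although median centring gave a called -0.17 (adjusted p = 0.047, limma). For Csnk1e, the brighter probe had a difference of -0.25 on 2 S3d arrays, 1 spot being left out for an outlier flag. It was not called (adjusted p = 0.26, limma). Without S3d replicate 1 the difference was -0.52 but rested on 1 S3d array. The other Csnk1e probe had a difference of -1.93 and its groups did not overlap.

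All 4 listed direct outputs were called on their brightest probe, against 73.9% of all tested probes. Nampt, the rate-limiting enzyme of NAD salvage, was 0.60 higher (SE 0.07, adjusted p = 0.00052, limma). Por, the electron donor of microsomal P450 enzymes, Usp2, a deubiquitinase, and Wee1, a kinase that holds cells before mitosis, were lower by differences of -0.64, -0.64 and -0.49 (adjusted p = 0.0024, 0.00099 and 0.0011, limma). The other Nampt probe went the opposite way, at -1.08, and the other probes of Wee1 were at -0.11 and -0.13 and not called.

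Glucocorticoid hormones also drive clock genes, Per1 among them, so 5 genes that these hormones induce in many tissues were read beside the clock. Of these, 4 were lower and none was higher, where 34.4% of all tested probes were lower and 39.5% higher. Fkbp5, a co-chaperone of the glucocorticoid receptor, measured 3.39, 3.53 and 3.63 on the control arrays and 0.53, 0.98 and 0.90 on the S3d arrays, a difference of -2.71 (SE 0.14, adjusted p = 2.3e-05, limma). All 3 Fkbp5 probes lay lower on every S3d array. Zbtb16, Sgk1 and Klf9 had differences of -1.88, -1.40 and -0.87 (adjusted p = 0.00026, 0.00051 and 0.00011, limma). Tsc22d3 was at -0.34 on its brightest probe and was not called (adjusted p = 0.06, limma), and its other probe lay lower, at -1.08. It was called without S3d replicate 1 (-0.46, adjusted p = 0.012) and with median centring (-0.51, adjusted p = 0.012). An intensity trend (adjusted p = 0.033) and the mean over its probes (-0.71, adjusted p = 0.0012) also gave a call. Quantile normalization did not (-0.16, adjusted p = 0.31). A list of 8 absorption genes with a known daily rhythm had 1 gene higher and 5 lower, where 73.9% of all tested probes were called, with a median of -0.49. With quantile normalization 2 of the 8 were called, 1 higher and 1 lower.

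**Figure D4:**
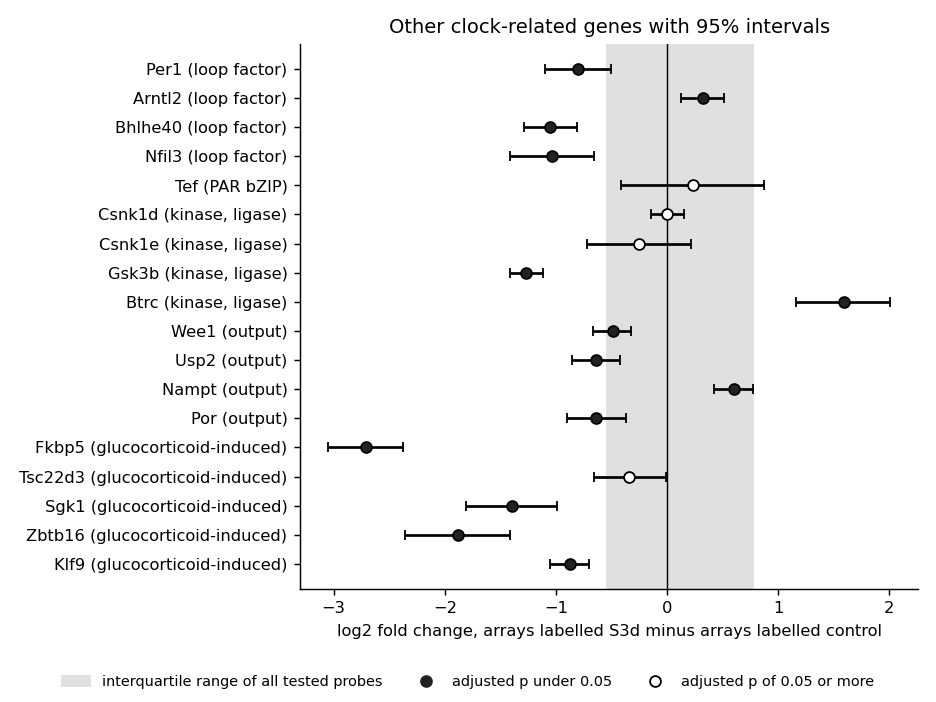
Log2 fold change (horizontal axis, S3d minus control by the scanner labels) with 95% intervals from limma for 18 clock-related genes on their brightest probe; filled symbols have an adjusted p under 0.05 and grey marks the interquartile range of all tested probes. Fkbp5 had the lowest value at -2.71; the point of Btrc rests on control signals not well above background, for which the text gives a bound.

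The profiles most like those of Arntl and Dbp were looked up among 14623 tested probes with a RefSeq gene name, by the Euclidean distance of the 6 array values after each probe was centred on its own mean. The nearest to Arntl was Per1, at a distance of 0.06, followed by Nr5a2, Tnnt3, Depdc5 and Tmem41a at 0.08 to 0.11. On the S3d arrays, Nr5a2, a nuclear receptor of the intestinal epithelium, measured -0.95, -0.68 and -0.48, lowest on replicate 1 and highest on replicate 3 as for Arntl. The other 4 kept the same order. The nearest to Dbp were Them5 at 0.34 and Klk8, Ptger3, Aldh8a1 and Tm4sf4 at 0.45 to 0.53. Aldh8a1 passed the filter on dim signals through the S3d arrays alone, so its distance rests partly on dim control signals. On the S3d arrays, Them5, a thioesterase of mitochondria, measured -2.55, -2.92 and -3.69, and the other 4 were likewise highest on replicate 1 and lowest on replicate 3. These 10 probes were picked for their likeness, so their values are a description.

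**Figure D5:**
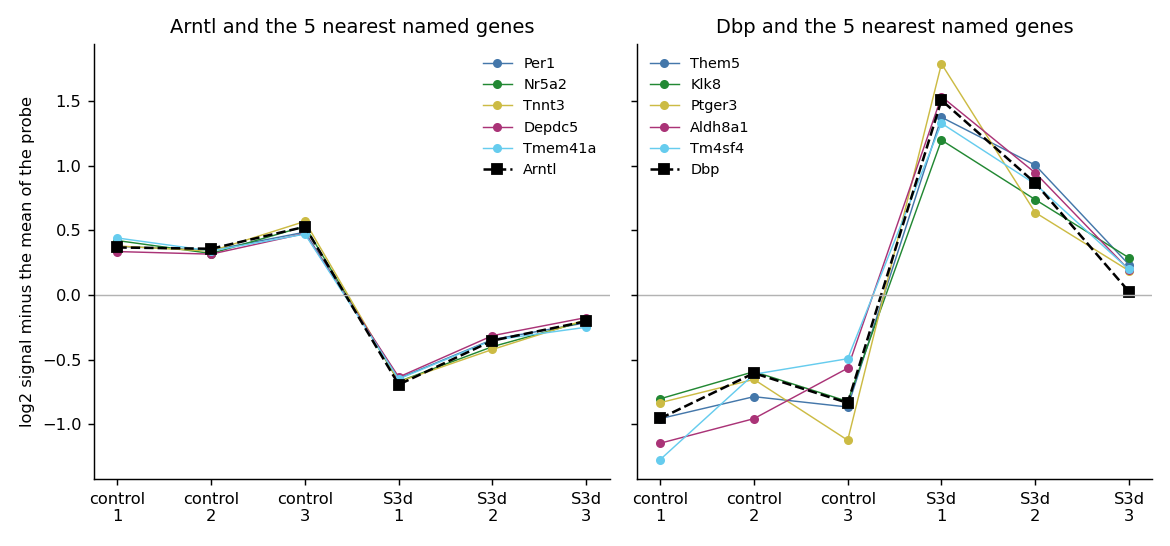
Log2 signal minus the mean of the probe (vertical axis) on each of the 6 arrays for Arntl (left, black) and Dbp (right, black) with the 5 named genes nearest to each in colour; lines only join the points of a gene. The genes near Arntl lay within 0.11 of it in distance, and those near Dbp were spread further, at 0.34 to 0.53.

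The calls were lost when the processed signal was replaced by normexp-corrected median spot signals. With these values none of the 12 clock probes was called by limma, where 5.53% of all tested probes were, and 5 of the 10 genes had an unadjusted p under 0.05, as did 38.3% of all tested probes. These values moved the median of all tested probes to -0.69. Relative to that median, Dbp was at 2.47, Per2 at 1.29, Nr1d1 at 1.10, Nr1d2 at -1.18 and Clock at -1.22. Cry1 then stood at 0.97, Cry2 at -0.96 and Per3 at 0.39, while Arntl, at 0.31, lay above the median and Npas2, at -0.18, close to it, so the falls of these activators against other genes were not seen with these values.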

How the data were processed

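The authors deposited scanner files from Agilent Feature Extraction 10.7.3.1 (probes annotated on rn4), whose background-subtracted processed intensity, not yet scaled across arrays, was used here, and a table of log2 values, quantile-normalized judging by its columns, whose sorted values differ by at most 0.0025. Its program is not given in the sources used here. Members and gene lists were chosen with earlier results of these data known.

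Control spots and outlier-flagged spots were left out, repeated spots were averaged, and log2 processed signals were centred on the 75th percentile of each array. The test took the 31424 probes that were well above background on every array of either group (9588 were left out). It was run with limma 3.58.1 in R 4.3.3 (lmFit, eBayes, no block), with Benjamini-Hochberg adjustment at 0.05. A first check on simulated data recovered 15.2% of log2 changes of 0.5, 70.1% of 1 and 88.1% of 2. Few probes were changed there and no slide effect was built in, unlike these data, so that check does not cover the calls made here. The brightest probe stands for a gene. Probes were named through RefSeq accessions (GRCr8 table); 17512 of 41012 had a symbol, and 7 of the 20 machinery genes were not analysed here; 1 further listed gene is not reported here. Named were all members, listed clock-related genes (the absorption genes were only counted), and the 5 named genes nearest to Arntl and to Dbp. Arrays were counted as replicates; p-values measure their spread only, and their number limits the precision. Per3 was left out of the arm means because 1 spot was missing. Normexp used median signals with an offset of 50. Alternatives were quantile and median centring, normexp, both other filters, outlier spots kept, the deposited table, a replicate block, an intensity trend, the methods' one-way analysis of variance, the mean over probes and each array left out. A slide block could not be fitted.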

Additional observations from a re-analysis of the deposited data

How the results depend on the processing

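Of 12 clock probes, 9 were called, among them the Per3 probe that passed the filter through the S3d arrays alone, and of 10 clock genes, 8. These counts stayed within 1.5 times under each alternative run except the normexp correction, which called 0 probes and 0 genes (limma) and 1 of the other 26 clock-related genes (20 in the main setting), and the demand for a fold change of at least 2, which was chosen after the results of these data were known and called 5 genes. Leaving out each array in turn gave 8 to 9 clock probes, 7 to 8 clock genes, 19 to 22 other genes, and an arm difference of -1.50 to -1.15. The arm difference of -1.32 became -0.98 with normexp and 1.29 in the deposited table, whose labels are opposite to those of the scanner files. By its own labels that table gave 0.73 for Arntl, 1.36 for Npas2, 1.28 for Clock, -0.40 for Per2, -3.66 for Per3 (which includes the spot with the outlier flag), 0.56 for Cry2, -0.99 for Nr1d1, 1.57 for Nr1d2 and -1.69 for Dbp. For the other clock machinery it gave 0.88 for Per1, -0.25 for Arntl2, 1.04 for Bhlhe40, 1.03 for Nfil3, -0.08 for Tef, -0.02 for Csnk1d, 0.18 for Csnk1e, 1.22 for Gsk3b, -0.91 for Btrc, 0.45 for Wee1, 0.62 for Usp2, -0.62 for Nampt and 0.41 for Por. For the glucocorticoid-induced genes it gave 2.56 for Fkbp5, 0.16 for Tsc22d3, 1.15 for Sgk1, 2.15 for Zbtb16 and 0.84 for Klf9. For the nearest profiles it gave 0.85 for Nr5a2, 1.21 for Tnnt3, 1.20 for Depdc5, 0.60 for Tmem41a, -1.38 for Them5, -1.53 for Klk8, -1.29 for Ptger3, -1.33 for Aldh8a1 and -1.89 for Tm4sf4. With normexp the sign turned for Per3 (-0.30), Cry1 (0.28), Arntl2 (-0.15), Tef (-0.71), Btrc (-1.63), Tsc22d3 (0.22), Them5 (-0.85), Ptger3 (-0.97) and Aldh8a1 (-1.10). Its offset of 50 is close to the median processed signal of the control arrays, 51.4 to 54.2, against 207.1 to 223.6 on the S3d arrays, and the cause was not tested. Quantile normalization turned Cry1 (0.05), median centring Csnk1d (-0.17), and the mean over probes Nampt (-0.24) and Tmem41a (0.29). With 1 array left out, Csnk1d ranged from -0.02 to 0.04, Tef from -0.01 to 0.45 and Csnk1e from -0.52 to 0.02. Both ends for Csnk1e rest on 1 S3d array, since its spot on S3d replicate 3 was left out. The same holds for Per3 without S3d replicate 1 or 2, and the leave-out counts above include both genes in that state. Same-numbered arrays did not deviate together (correlations of 0.02, 0.02 and -0.05), and not every array correlated best with its own number. With the replicate block, 9 clock probes, 8 clock genes and 20 other genes were called, and calls over all probes went from 23230 to 22233.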
